A study of Mus musculus with 19 samples.

Results

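Interferon-stimulated genes were followed in the lungs of mice given a mixture of 8 polycyclic aromatic hydrocarbons by gavage. The set held 36 genes, chosen by name as classical targets or carriers of interferon signalling, and a gene was read through every array probe whose RefSeq accession mapped to its symbol. Of the 36 genes, 34 had such a probe and 33 passed the detection filter, out of 14735 gene symbols tested among 20660 with a probe. Mx1 and Mx2 had no matched probe, and both probes of Oas1g, a close relative of Oas1a, were well above background in 0 mice. No values are given for these 3 genes.

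All 18 animals were adult male MutaMouse, a strain that carries a bacterial reporter transgene for mutation assays, aged about 12 weeks. D0 (5 mice) received olive oil alone, and D1 (4 mice), D2 (5 mice) and D3 (4 mice) received 15, 30 and 60 mg benzo[a]pyrene equivalents/kg-bw/day in olive oil. Dosing was daily for 28 days and lung was taken 72 h after the last dose, so the values describe lung tissue after dosing had stopped. Each value is a log2 ratio of lung RNA, labelled with Cy5, over a common reference RNA from 11 mouse cell lines, labelled with Cy3, and a ratio of 0 means equal signal in both. Mouse 35 of D3 was hybridised on a pair of arrays, which were averaged. The mouse labelled D2 mouse 23 bears a number in the D1 series, where the numbers of mice per group in the methods would also put it, and was kept in D2 as labelled. Of 11 lung epithelial marker genes, 10 had a tested probe, and the probe of Napsa lacked a value in some mouse. Median lung signals were 114 to 151.5 per array, and 54.5% to 64.7% of lung-channel spots were well above background. In whole lung, fewer cells of a type and less RNA per cell cannot be told apart.

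Interferons are secreted proteins that warn cells of infection. Type I interferons bind the IFNAR receptor, and the signal is carried to the nucleus by a complex with STAT2 and IRF9 that binds the interferon-stimulated response element (ISRE) of target genes. Interferon gamma acts on its targets through the gamma-activated site (GAS). The targets include sensors of foreign nucleic acid, enzymes that degrade viral RNA, proteins that block viral translation, the ubiquitin-like protein ISG15 and GTPases that attack the vacuoles of intracellular microbes.

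Promoter stretches of 6 genes are shown, from the families that the results below turn on, since they hold the letters that these factors are known to bind. RefSeq promoters of GRCm38.p6, from 250 bases before to 50 bases after the start, were held for 27 of the 36 genes. Capitals mark the searched letters, GAAANNGAAA for the ISRE (TTTCNNTTTC on the other strand) and TTCNNNGAA for the GAS, and sequences run 5′ to 3′ along the gene's strand. In Isg15, Oas1a and Irgm1 the capital run is made of overlapping ISRE matches, and Oas1a and Igtp each also hold a GAS match.
Ifit1, chr19:34640773-34640825, plus strand: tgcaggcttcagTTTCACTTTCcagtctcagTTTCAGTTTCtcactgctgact
Ifit3, chr19:34583361-34583428, plus strand: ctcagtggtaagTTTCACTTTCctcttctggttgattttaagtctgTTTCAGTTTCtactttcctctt
Isg15, chr4:156200863-156200908, minus strand: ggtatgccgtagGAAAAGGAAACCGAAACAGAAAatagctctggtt
Oas1a, chr5:120907526-120907635, minus strand: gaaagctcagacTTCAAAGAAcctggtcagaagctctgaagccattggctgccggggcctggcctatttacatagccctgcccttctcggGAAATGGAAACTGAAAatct
Igtp, chr11:58199499-58199543, plus strand: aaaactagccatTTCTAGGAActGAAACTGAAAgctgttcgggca
Irgm1, chr11:48871423-48871462, minus strand: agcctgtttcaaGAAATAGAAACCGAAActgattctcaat

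The ISRE letters were found in 16 of the 27 promoters (59.3%), against 3.99% of 27025 genes with a promoter. The GAS letters were found in 7 of the 27 (25.9%), against 9.55%. A match describes the letters and is no measured binding site. Bst2, Igtp and Oas1a held both.

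None of the 33 genes passed the test at any dose. A gene was called in limma where it moved by 1.5-fold or more with a p, adjusted by Benjamini-Hochberg, not above 0.05, and 0 of 33 genes met this in any dose group against D0. Over all 30999 probes tested, 1.06% met it in D1, 0.626% in D2 and 2.43% in D3, so that a set of this size would hold few calls at the background rate. By adjusted p alone the counts were also 0, against 4.74%, 2.09% and 12.4% of all probes. At an unadjusted p under 0.05 the counts were 5, 0 and 1 of 33, where all probes gave 19.8%, 14.7% and 26.2%. Once D0 mouse 5 was left out they were 10, 3 and 5 of 33, where all probes gave 19.4%, 14.4% and 25.2%, so that at D1 the share of the set lay below that of all probes with this animal and above it without. This animal was picked out for its high values in these genes, and the p values do not account for that choice. The comparisons of D2 with D1 (0% of all probes called) and of D3 with D2 (0.106%) and the linear trend over dose (1.53%, or 6.56% by adjusted p alone) also gave 0 calls among the 33, with 1 gene each at an unadjusted p under 0.05.

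The median log2 change over the 33 genes was 0.02 at D1, -0.017 at D2 and -0.0081 at D3, beside 0.0066, -0.0035 and -0.0020 over all probes. Without D0 mouse 5 these medians were 0.187, 0.144 and 0.114, with 27, 29 and 28 of the 33 genes above 0. All probes then gave 0.0097, -0.0013 and 0.00032. That mouse was picked out after its values were seen to be the highest of all mice for 20 of the 33 genes. Leaving it out therefore raises most estimates by construction. D0 mouse 4, lowest for 13 genes, pulls those the other way, and medians without it were not computed. Without D0 mouse 4 the D3 changes were 0.23 for Ifit3, -0.46 for Irf7 and -0.44 for Bst2. With all mice these were 0.39, -0.29 and -0.25. With all 18 mice and the brightest tested probe of each gene, 16 genes lay above 0 at D3 and 17 below. The D3 changes ran from -0.60 for Ifi27l2a to 0.39 for Ifit3. At D1 they ran from -0.50 for Oasl1 to 0.62 for Gbp3, and at D2 from -0.45 for Ifi44 to 0.31 for Gbp3. Leaving out D0 mouse 5, the ranges were -0.16 (Bst2) to 0.61 (Ifit3) at D3, -0.26 (Oasl1) to 0.76 (Gbp3) at D1 and -0.16 (Ifi44) to 0.46 (Gbp3) at D2. At each dose the 95% interval lay wholly within 1.5-fold for 17 of the 33 genes (51.5%), while this held for 88.6%, 92.1% and 85.3% of all probes. For the other 16 genes a change of 1.5-fold remained within the interval, so an absence of change was not shown for them.

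**Figure D1:**
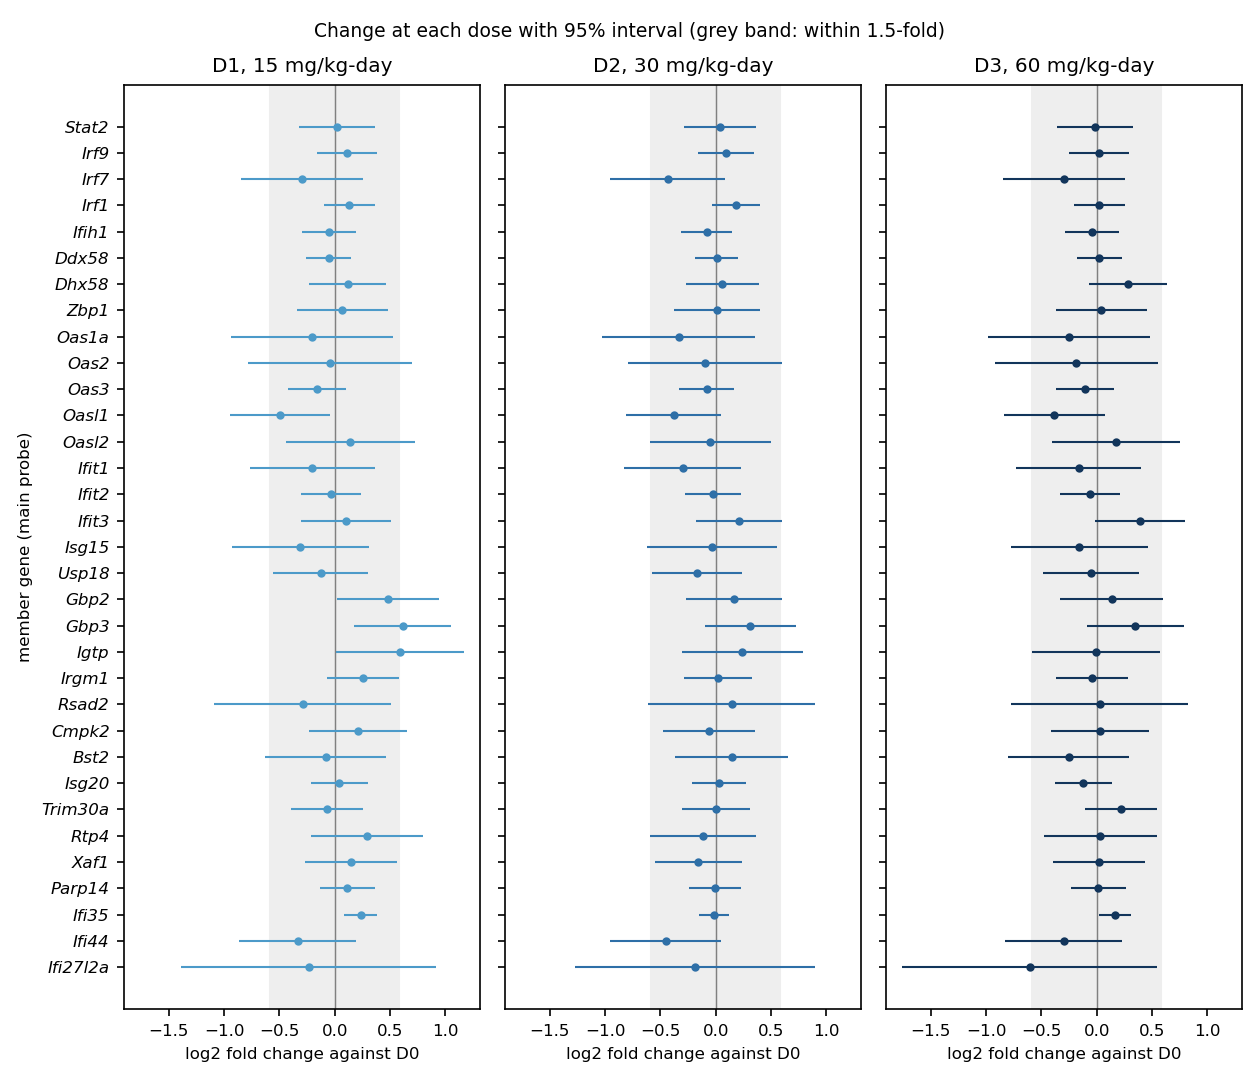
Log2 fold change of each of 33 interferon-stimulated genes against D0 at D1, D2 and D3, with points for the limma estimate, lines for the 95% interval and a grey band for changes within 1.5-fold. At each dose 17 of 33 intervals lie inside the band, and the widest belong to Ifi27l2a.

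Signalling and transcription factors did not pass the test at any dose. Stat2, a subunit of the ISRE-binding complex, had D0 values of 0.79, 0.43, 0.73, 0.66 and 1.25. Among treated mice the D1 values were 0.45, 0.81, 1.02 and 0.89, the D2 values 0.70, 0.60, 0.57, 1.21 and 0.99 and the D3 values 0.52, 0.57, 1.01 and 0.93. All 4 groups overlapped, and the change at D3 was -0.02 ± 0.16 (SE; adjusted p = 0.966 in limma). Irf9, the DNA-binding subunit of the same complex, had D0 values of 1.0, 0.86, 1.04, 0.78 and 1.32. For this gene the D1 values were 0.86, 1.29, 1.12 and 1.17, the D2 values 0.97, 0.87, 0.88, 1.39 and 1.37 and the D3 values 0.90, 0.94, 1.1 and 1.15. The D3 change was 0.02 ± 0.13 (adjusted p = 0.94 in limma), with every D3 mouse inside the D0 range.

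Irf7, itself interferon-induced and needed for the amplification of interferon production, had D0 values of -0.92, -1.28, -1.26, -1.64 and 0.32. Here the D1 values were -1.36, -1.0, -1.59 and -1.07, the D2 values -1.55, -1.64, -1.07, -1.41 and -1.28 and the D3 values -1.17, -1.08, -1.29 and -1.47. Mouse 5 of D0 alone lay above 0, and every other mouse lay between -1.64 and -0.92. The D3 change was -0.29 ± 0.26 (adjusted p = 0.525 in limma), and 0.03 without mouse 5. Irf1, a factor that interferon gamma induces through the GAS, had log2 estimates of 0.13, 0.18 and 0.02 at D1, D2 and D3, with adjusted p of 0.455 to 0.926 in limma. Its second probe, for another transcript, was well above background in 3 mice and was not tested.

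No sensor passed the test. By their brightest probes, changes of Ifih1 and Ddx58, the RNA helicases MDA5 and RIG-I, were between -0.08 and 0.02 at the 3 doses. The 95% intervals of these probes lay inside 1.5-fold. A dimmer Ddx58 probe gave 0.09, 0.23 and 0.28 at D1, D2 and D3 (adjusted p of 0.2 to 0.777 in limma). A dimmer Ifih1 probe gave 0.14, 0.12 and 0.14. Zbp1, a sensor of left-handed nucleic acid, had log2 estimates of 0.07, 0.01 and 0.04, and of 0.24, 0.18 and 0.21 without D0 mouse 5. Dhx58, the helicase LGP2, had a log2 estimate of 0.28 ± 0.17 at D3 (adjusted p = 0.301 in limma), and its D0 values of -0.13, -0.21, 0.05, 0.05 and 0.94 showed 1 mouse far above the rest. Without that animal, D0 mouse 5, the D3 change of Dhx58 was 0.48 ± 0.10 (adjusted p = 0.00591 in limma), which is under 1.5-fold. The animal was picked out after its values were seen, and this p does not account for that choice.

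The oligoadenylate synthetases, which make the messenger that switches on RNase L, did not pass the test, and without D0 mouse 5 the signs of some estimates turned. Oas2 had D0 values of -1.09, -1.52, -1.06, -1.53 and 0.49. For Oas2 the D1 values were -1.56, -0.67, -0.65 and -1.05, the D2 values -1.55, -1.76, -0.97, -0.21 and -0.70 and the D3 values -1.44, -1.18, -1.13 and -0.75. The spread in D2 spanned 1.56 log2 units, and the D3 change was -0.18 ± 0.35 (adjusted p = 0.793 in limma). Oas1a had D0 values of -1.43, -1.76, -1.5, -1.87 and 0.56, and the highest of the treated mice lay at -1.17. Oasl1, a relative without synthetase activity, had log2 estimates of -0.50 ± 0.22 at D1 (adjusted p = 0.208 in limma), -0.38 at D2 and -0.38 at D3. Oas3 had log2 estimates of -0.16, -0.08 and -0.11, and Oasl2 of 0.14, -0.05 and 0.18. Without D0 mouse 5 the D1, D2 and D3 estimates were 0.24, 0.11 and 0.18 for Oas1a, 0.32, 0.26 and 0.17 for Oas2 and 0.47, 0.28 and 0.51 for Oasl2, against -0.26, -0.14 and -0.14 for Oasl1 and -0.03, 0.04 and 0.02 for Oas3.

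IFIT proteins bind viral RNA and hold back its translation. Ifit1 had D0 values of -0.47, -0.56, -0.95, -1.23 and 0.88, a mean of -0.47 ± 0.81 (SD, n = 5). For Ifit1 the D1 values were -0.80, -0.40, -0.99 and -0.49, the D2 values -0.78, -0.76, -0.72, -0.72 and -0.85 and the D3 values -0.63, -0.55, -0.86 and -0.48. The treated groups were tight, with SDs of 0.28, 0.052 and 0.17, and lay inside the D0 range. The D3 change was -0.16 ± 0.27 (adjusted p = 0.754 in limma), and 0.17 without D0 mouse 5 (adjusted p = 0.515). Ifit3, a partner that stabilises IFIT1, had D0 values of 2.18, 1.76, 2.1, 1.45 and 2.96. For Ifit3 the D1 values were 2.09, 2.25, 2.31 and 2.11, the D2 values 2.09, 2.26, 2.22, 2.34 and 2.58 and the D3 values 2.29, 2.53, 2.6 and 2.5. Its group means were 2.09, 2.19, 2.30 and 2.48, and all 4 D3 mice lay above 4 of the 5 D0 mice and below D0 mouse 5. The D3 change was 0.39 ± 0.20 (95% interval -0.02 to 0.80, adjusted p = 0.21 in limma), and the fitted trend from D0 to D3 was 0.39 (adjusted p = 0.2). With D0 mouse 5 left out, the D3 change of Ifit3 was 0.61 and was called (adjusted p = 0.00784 in limma). Here too the mouse was picked by its values, and the p does not account for that choice. With D0 mouse 4 left out instead, the D3 change of Ifit3 was 0.23. Ifit2 had log2 estimates of -0.03, -0.02 and -0.06, and of 0.11, 0.12 and 0.08 without D0 mouse 5.

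In the ISG15 system no gene passed the test. Isg15, which is coupled to other proteins much as ubiquitin is, had D0 values of -0.98, -0.99, -1.74, -1.88 and -0.07. For Isg15 the D1 values were -1.92, -0.81, -1.95 and -1.1, the D2 values -1.54, -1.21, -0.90, -1.09 and -1.08 and the D3 values -1.59, -0.90, -1.41 and -1.26. The groups overlapped throughout, with a D3 change of -0.16 ± 0.30 (adjusted p = 0.786 in limma), and 0.11 without D0 mouse 5. A dimmer Isg15 probe gave 0.03 at D3 (adjusted p = 0.956). Usp18, the protease that removes ISG15 and dampens the receptor, had log2 estimates of -0.13, -0.17 and -0.05, and of 0.13, 0.09 and 0.20 without D0 mouse 5.

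The interferon-inducible GTPases, strongly induced by interferon gamma, were the group with the highest estimates at D1, none past the test. Gbp3 had D0 values of 1.2, 0.34, 0.52, 0.01 and 1.26. For Gbp3 the D1 values were 0.99, 1.34, 1.16 and 1.65, the D2 values 1.03, 0.79, 0.82, 1.41 and 0.85 and the D3 values 0.91, 1.04, 0.94 and 1.18. The D1 change was 0.62 ± 0.21 (95% interval 0.18 to 1.06, adjusted p = 0.0973 in limma), a size of over 1.5-fold that missed the threshold, and at D3 it was 0.35 ± 0.21 (adjusted p = 0.309). With 1 mouse left out the D3 change ran from 0.19 to 0.50. Without D0 mouse 5 the D1 change of Gbp3 was 0.76 and was called (adjusted p = 0.0362 in limma). That p does not account for the choice of the mouse by its values. Without D0 mouse 4 the D1 change of Gbp3 was 0.45.

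Igtp, which acts at the vacuoles of intracellular parasites, had D0 values of 1.66, 0.56, 0.22, 0.19 and 1.27. For Igtp the D1 values were 0.91, 1.09, 1.22 and 2.25, the D2 values 1.0, 0.97, 0.83, 1.47 and 0.83 and the D3 values 0.66, 0.78, 0.74 and 0.91. Its estimates were 0.59 ± 0.28 at D1 (adjusted p = 0.245 in limma) and -0.01 ± 0.28 at D3, and D1 mouse 25 held the highest value of all. Gbp2 had D0 values of 3.0, 2.01, 2.11, 1.78 and 2.69. For Gbp2 the D1 values were 2.59, 2.65, 2.61 and 3.35, the D2 values 2.66, 2.35, 2.36, 2.89 and 2.16 and the D3 values 2.31, 2.45, 2.27 and 2.78. Its changes were 0.48 at D1 (adjusted p = 0.233), 0.17 at D2 and 0.13 at D3. Irgm1, a regulator of the other immunity-related GTPases, had D0 values of 0.68, -0.02, 0.28, -0.12 and 0.80. For Irgm1 the D1 values were 0.44, 0.47, 0.44 and 0.95, the D2 values 0.49, 0.26, 0.35, 0.29 and 0.35 and the D3 values 0.36, 0.24, 0.26 and 0.28. The D1 change was 0.25 ± 0.16 and the D3 change -0.04 ± 0.16 (adjusted p = 0.393 and 0.907 in limma), with a dimmer probe at 0.33 and 0.02. Without D1 mouse 25 the D1 estimates were 0.29 for Igtp, 0.30 for Gbp2, 0.13 for Irgm1 and 0.50 for Gbp3. Without D0 mouse 1 they were 0.81, 0.65, 0.34 and 0.75 in that order. With median centring in place of loess the D1 estimates were 0.86 for Igtp, 0.74 for Gbp2, 0.53 for Irgm1 and 0.85 for Gbp3, with adjusted p of 0.572 to 0.58 in limma.

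Among the other effectors, Rsad2 (viperin, which makes a chain-terminating nucleotide) varied between mice of every group. Its D0 values were 1.55, 2.0, 0.51, 0.59 and 1.98. For Rsad2 the D1 values were 0.92, 2.03, 0.04 and 1.15, the D2 values 1.08, 1.0, 2.22, 1.78 and 1.27 and the D3 values 0.66, 1.5, 1.3 and 1.95. The lowest and the highest of all 18 mice, D1 mouse 24 and D2 mouse 28, were both treated, and the D3 change was 0.02 ± 0.38 (adjusted p = 0.978 in limma). Bst2 (tetherin, which holds budding virions at the cell surface) had D0 values of -0.32, -0.32, -1.13, -1.46 and -0.36. For Bst2 the D1 values were -0.99, -0.65, -1.27 and -0.29, the D2 values -0.81, -0.66, -0.43, -0.31 and -0.67 and the D3 values -1.3, -0.17, -1.15 and -1.27. In D3, mouse 32 stood apart above the other 3 mice, and the change was -0.25 ± 0.26 (adjusted p = 0.588 in limma). Without that mouse the estimate was -0.52, and with any 1 mouse left out it ran from -0.52 to -0.14.

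Ifi35 had a narrow spread in D0, with an SD of 0.049. Its D0 values were 1.12, 1.2, 1.2, 1.23 and 1.24. For Ifi35 the D1 values were 1.42, 1.6, 1.44 and 1.27, the D2 values 1.11, 1.18, 1.31, 1.2 and 1.11 and the D3 values 1.35, 1.4, 1.37 and 1.33. It was the single gene of the 33 whose D1 and D3 mice all lay above every D0 mouse, a separation that 4.73% of all probes showed at D1 and 7.47% at D3, while D2, where 2.51% of all probes did so, overlapped D0. The changes were 0.23 ± 0.07 at D1 (adjusted p = 0.0612 in limma) and 0.16 ± 0.07 at D3 (adjusted p = 0.141), both under 1.5-fold. No gene of the set had a dose group wholly below D0, which 4.19%, 1.6% and 7.17% of all probes showed at D1, D2 and D3.

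Ifi27l2a, a small mitochondrial protein gene strongly induced by type I interferon, had the widest spread in D0. Its D0 values were 0.79, -0.29, 0.41, -0.64 and 3.13. For Ifi27l2a the D1 values were -0.14, 1.46, 0.19 and 0.27, the D2 values 0.50, -0.38, 0.21, 1.11 and 1.03 and the D3 values -0.34, -0.34, 0.83 and 0.15. The D3 change of -0.60 had a 95% interval of -1.76 to 0.55 (adjusted p = 0.533 in limma). It rested on D0 mouse 5, without which the estimates of Ifi27l2a were 0.38, 0.43 and 0.01 at D1, D2 and D3. The remaining effectors, Cmpk2, Isg20, Trim30a, Rtp4, Xaf1, Parp14 and Ifi44, had estimates of -0.30 to 0.22 at D3, with adjusted p between 0.403 and 0.963, and of -0.09 to 0.30 without D0 mouse 5. Of 9 genes with a further tested probe, none of those probes was called in any comparison. The further Cmpk2 probe gave 0.64 at D1 (adjusted p = 0.304 in limma) and 0.42 at D3, beside 0.21 and 0.03 for the main one. At the 3 doses a further probe differed in sign from the main one for Ifih1 (0.14 and -0.04 at D3), Ddx58 (0.09 and -0.05 at D1), Xaf1 (0.15 and -0.16 at D2), Isg20 at D2, Isg15 at D3 and Irgm1 at D3. Genes with close copies, such as Oas1a and Ifit3, may share probe signal with them.

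**Figure D2:**
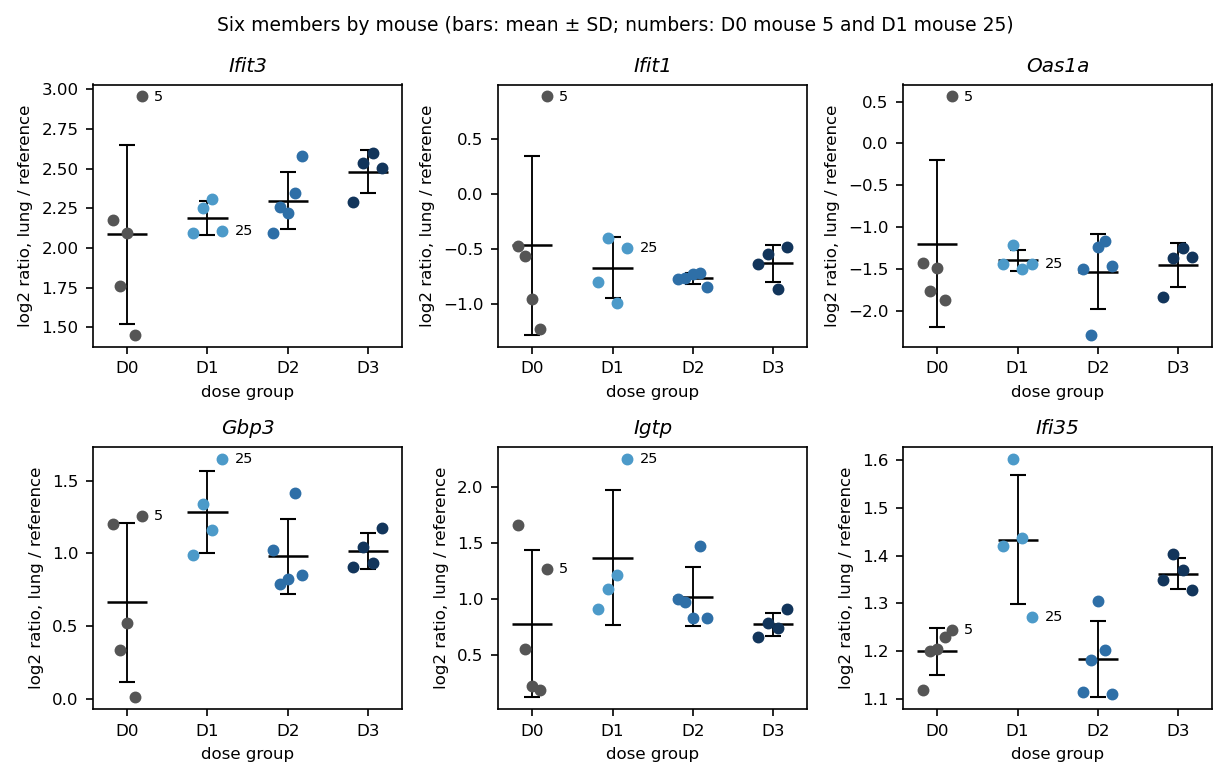
Log2 ratios of lung over reference RNA for 6 genes in each mouse, by dose group, with black bars for the group mean ± SD. D0 mouse 5 holds the highest value of Ifit3, Ifit1 and Oas1a, D1 mouse 25 that of Gbp3 and Igtp, and the D1 and D3 mice lie above all D0 mice for Ifi35.

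Single mice stood out in these genes. How much of the variation lay between mice and how much between slides, each scanned on its own day, was not tested. The mice named here were picked out after their values were seen. D0 mouse 5 had the highest value of all 18 mice for 20 of the 33 genes, while it was highest for 5.02% of all probes. Against the mean of the other 4 D0 mice it was 8.34-fold higher for Ifi27l2a, 4.59-fold for Oas1a, 3.47-fold for Oas2, 3.22-fold for Ifit1, 3.13-fold for Oasl2 and 3.03-fold for Irf7. In all, 12 genes were over 2-fold and 22 over 1.5-fold higher, whereas Ifi35 (1.04-fold) and Irf1 (0.883-fold) were not. These are folds of 1 animal, with no test. Mouse 4 of D0 was the opposite case, with the lowest value of all mice for 13 of the 33 genes (7.13% of all probes).

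**Figure D3:**
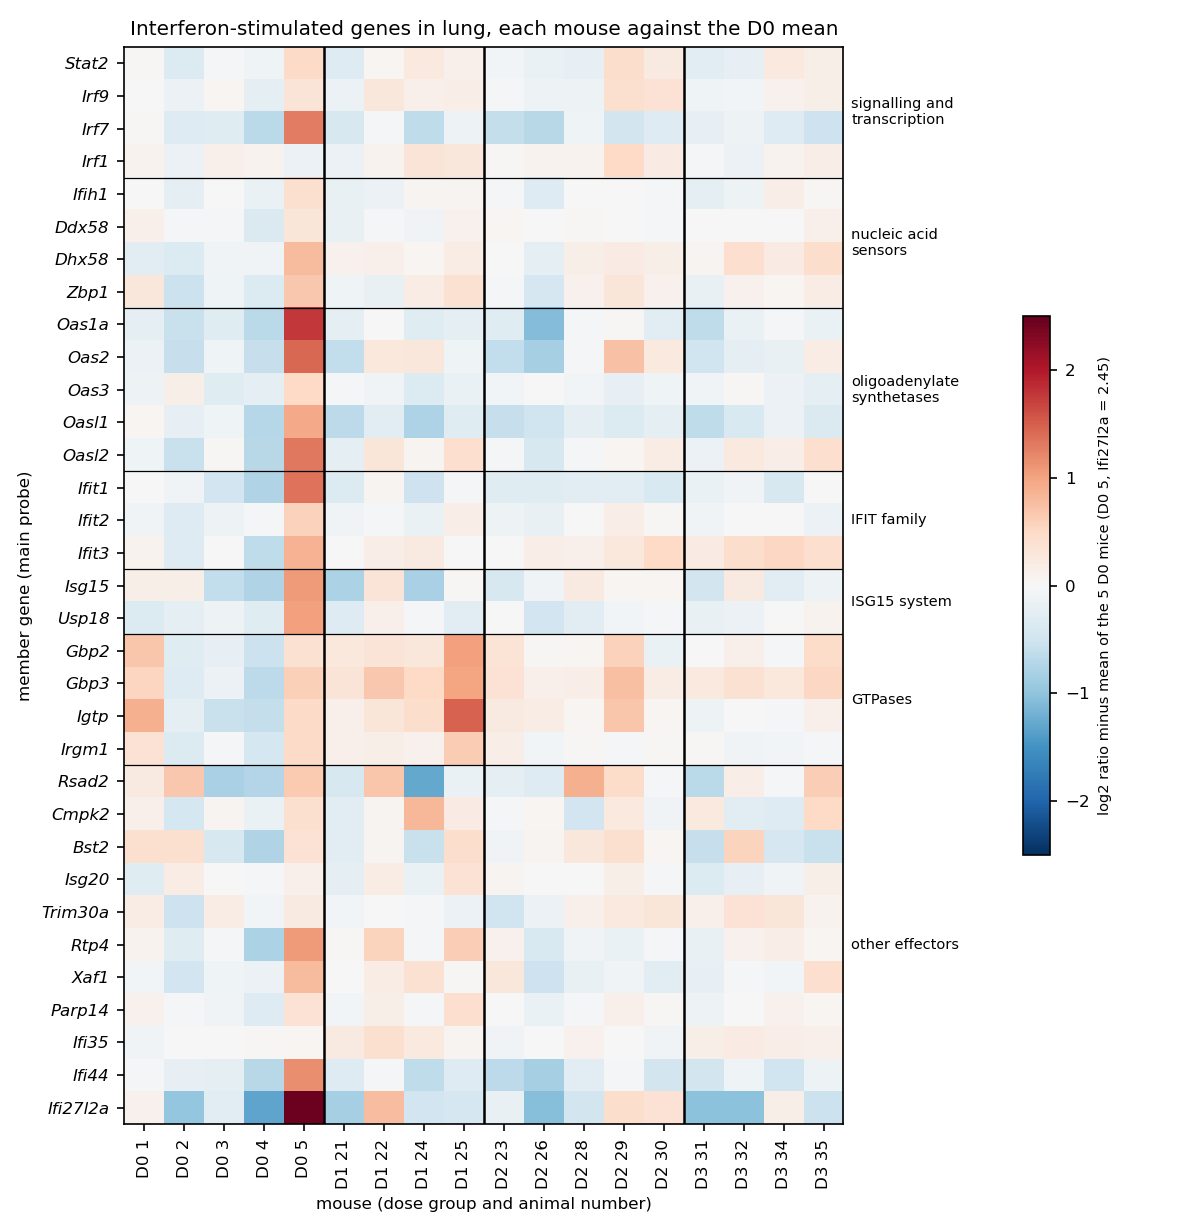
Log2 ratio of each of 33 genes (rows, ordered by role) in each of 18 mice (columns, by dose group), minus the mean of the 5 D0 mice; red is higher and blue lower. D0 mouse 5 is the most deeply red column outside the GTPases, D0 mouse 4 is mostly blue, and no dose group is evenly red or blue.

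Per mouse, the median over the 33 genes of the difference from the D0 mean ran from -0.45 to 0.59 in D0, from -0.18 to 0.13 in D1, from -0.17 to 0.14 in D2 and from -0.17 to 0.12 in D3. The range was 1.03 in D0, where it rested on mice 4 and 5, and 0.308, 0.31 and 0.292 in D1, D2 and D3. This contrast depended on the loess step, since with median centring in its place the ranges were 1.31 in D0, 1.01 in D1, 0.999 in D2 and 1.14 in D3. The median SD within a group over the 33 genes was 0.51 in D0, 0.25 in D1, 0.22 in D2 and 0.17 in D3, against 0.134 to 0.152 over all probes. Without mouse 5 the D0 value was 0.28. With median centring the 4 group values were 0.57, 0.54, 0.51 and 0.50, and the D0 value without mouse 5 was 0.24, then below those of the treated groups. The arrays of mouse 35, which read the same animal on different slides, differed by a median of 0.10 over the 33 genes and 0.11 over all probes, with a maximum of 0.43 for Xaf1.

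The lung channel carried the difference of D0 mouse 5. Its median over the 33 genes was 0.64 from the lung channel alone and 0.0055 from the reference channel alone. In the series table of the authors it was 0.57, and in the scanner software's corrected signals 0.64. With median centring in place of loess it was 0.87, but then D1 mouse 25 and D2 mouse 23, on the same slide, stood at 0.83 and 0.60, D3 mouse 35, with arrays on that slide and on slide 2, at 0.81 and D2 mouse 29, on slide 2, at 0.597. Its array had the highest share of lung-channel spots well above background, 64.7%, and the part of that in the result was not tested. Among 9 further probes of the set, which are the dimmer ones, 2 were highest in this mouse, Oas1a (3.00-fold over the other D0 mice) and Isg15 (1.90-fold).

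Other mice held the highest GTPase values. D0 mouse 5 was highest for 0 of 4 GTPases and for 20 of the 29 other genes, while D1 mouse 25 was highest for all 4 GTPases. The median over the GTPases was 1.01 in D1 mouse 25, 0.63 in D2 mouse 29, 0.61 in D0 mouse 1, 0.48 in D0 mouse 5 and -0.57 in D0 mouse 4. The treated mice with high GTPases had medians over the other genes of 0.07 (D1 mouse 25) and 0.125 (D2 mouse 29).

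**Figure D4:**
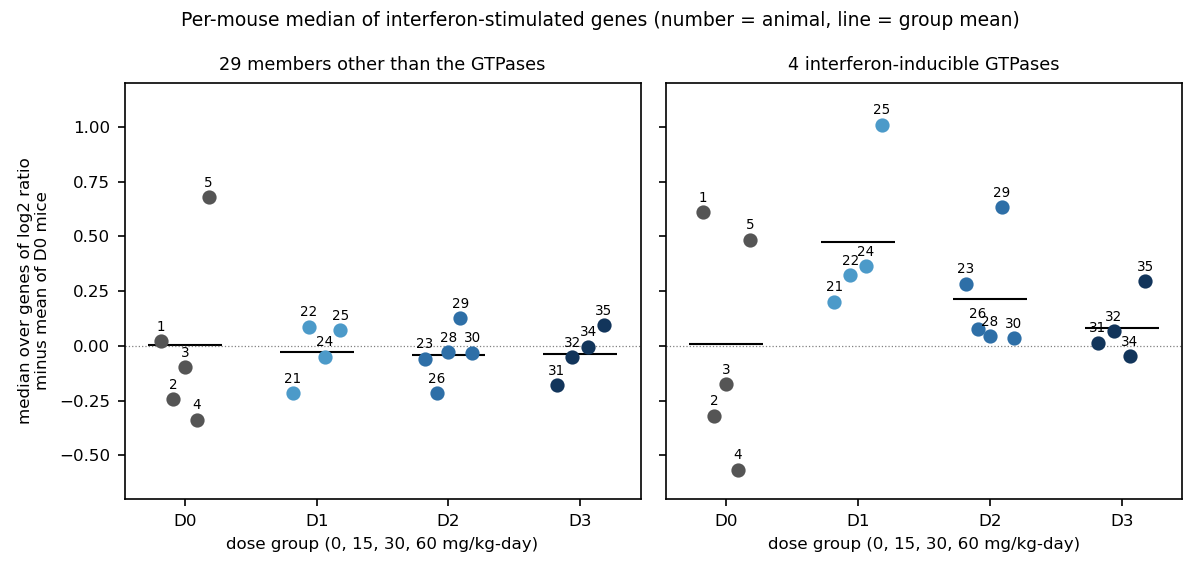
Per-mouse median of the log2 ratio minus the D0 mean, over the 29 genes other than the GTPases (left) and over the 4 GTPases (right), by dose group, with animal numbers and a line at the group mean. Mouse 5 of D0 stands highest on the left at 0.68 and D1 mouse 25 on the right at 1.01.

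As a description of how the genes moved together, Pearson correlations were taken over the 18 mice after the group means were removed. The pairs share arrays, and D0 mouse 5 weighs on them. The median r was 0.865 among the 4 GTPases, 0.576 among the other 29 genes and 0.487 between both. Without D0 mouse 5 these were 0.845, 0.35 and 0.377. Against the median of the other genes of the set, 26 of 33 genes had an r over 0.5 (21 without mouse 5), where 3.64% (3.06%) of 30966 other probes did. Oasl2 was highest at 0.955 and Rtp4, a chaperone of receptor transport, at 0.927, whereas Irf1 stood at 0.044 and Ifi35 at -0.004. Without D0 mouse 5, Irf1 was at 0.422, and the lowest were Oas3 at -0.233 and Ifi35 at -0.205.

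The 10 genes outside the set with the most similar pattern, of 14702 symbols compared, were Adar, Apol9a, Apol9b, Cxcl10, Phf11a, Snx2, Colec11, Lgals3bp, Phf11d and C2. Their r with the set's median over 18 mice was 0.949 for Adar, an RNA-editing enzyme with an interferon-induced form, and 0.827 to 0.9 for the others. Without mouse 5 it was 0.873 for Adar and 0.571 to 0.882 for the others. Apol9a and Apol9b are near-identical copies, and their probes may share signal.

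Leaving D0 mouse 5 out changed the calls. With 4 D0 mice, Gbp3 was called at D1 (0.76 ± 0.20, adjusted p = 0.0362 in limma) and Ifit3 at D3 (0.61 ± 0.14, adjusted p = 0.00784), and 0 genes were called at D2. That is 1 of 33 genes at each of D1 and D3, beside 1.16% and 2.56% of all 30561 probes then tested. The mouse was labelled as a control like the others and was kept. It was picked out by its values in these genes, and the adjusted p without it do not account for that choice. Leaving out any other single mouse gave 0 calls in every comparison.

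Slides gave different pictures as well. The arrays lay on 3 slides that each held all dose groups, and since the column of an array on its slide followed the dose, effects of column and of dose cannot be told apart. On slide 1 the median difference of D3 from D0 over the 33 genes was -0.03. On slide 2, which held D0 mouse 4, it was 0.26, with 33 of 33 genes higher. On slide 3, where the D0 array was that of mouse 5, it was -0.52, with 28 of 33 lower. With slide as a block there were 0 calls at every dose, and the Ifit3 change at D3 was 0.41 and the Gbp3 change at D1 0.59.

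Upstream genes of the pathway, from a list of 26 receptors, kinases, ligands, factors and inhibitors, gave 0 calls among the 20 tested at any dose. Of all probes, 1.06%, 0.626% and 2.43% were called at D1, D2 and D3, so a list of this size would hold few calls at that rate. The median change of the 20 genes at D3 was 0.06, beside -0.0020 over all probes. Irf8, a factor of myeloid cells, had log2 estimates of -0.20, -0.01 and -0.09 at D1, D2 and D3. Ifnb1, the gene of interferon beta, was well above background in 0 mice and Ifng in 4 mice, so neither ligand was tested.

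A second list of 38 further interferon-induced genes gave 0 calls among 34 tested at each dose, where 1.06%, 0.626% and 2.43% of all probes were called at D1, D2 and D3. By adjusted p alone, which 4.74% of all probes passed at D1 and 12.4% at D3, Tap1, the peptide transporter that loads MHC class I, was higher at D1 (0.57 ± 0.15, adjusted p = 0.0329 in limma) and Parp12, a mono-ADP-ribosyltransferase, at D3 (0.39 ± 0.11, adjusted p = 0.025), both under 1.5-fold. A single gene of 34 is not above those shares. Eif2ak2, the kinase PKR, had log2 estimates of -0.05, 0.01 and -0.01. Cxcl10, a chemokine for T and NK cells, was at -0.0022 in D0 mouse 5 and -0.17 in D3 mouse 35, and between -2.59 and -1.05 in the other 16 mice. Cxcl9 was not tested. Of the 34 genes, 13 were highest in D0 mouse 5 and 11 in D1 mouse 25, mice that were highest for 5.02% and 7.05% of all probes.

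Marker genes of cells that make or answer interferons are counted beside the 1.06%, 0.626% and 2.43% of all probes called at D1, D2 and D3. At D3, 5 of 8 neutrophil and 3 of 9 NK and cytotoxic genes were called, both shares above 2.43%. In the NK and cytotoxic list of 9 tested genes, Gzma was called lower at D1 and D2, and Gzma, Prf1 and Tbx21 at D3. The mean over that list, as a difference from the D0 mean, was -0.39 to 0.42 in D0 mice and -0.92 to -0.63 in D3 mice. In the neutrophil list S100a9, S100a8, Retnlg, Cxcr2 and Mmp9 of 8 tested were called higher at D3, with list means of -0.26 to 0.44 in D0 and 0.36 to 1.62 in D3. Of 10 alveolar macrophage markers, Ear1 was called lower at D2 and Krt79 at D3. The mean over that list was -0.15 to 0.094 in D0 mice, and all D2 mice (-0.67 to -0.23) and D3 mice (-0.47 to -0.25) lay below them, while D1 overlapped D0 (-0.43 to 0.14). Of 6 plasmacytoid dendritic cell markers Klk1 was called lower at D2, and of 8 endothelial markers Pecam1 was called higher at D1 and D3 and Emcn at D3. The endothelial list as a whole had medians of -0.03, 0.17 and 0.04 at D1, D2 and D3. The T cell (9 tested), B cell (6), monocyte (5), lung epithelial (10) and cardiac muscle (8) lists gave 0 calls at the 3 doses. Their D3 medians were 0.26, -0.11, -0.17, -0.34 and -0.16 in that order. The cardiac muscle list varied widely between mice, with list means of -0.51 to 0.18 in D0 and -2.13 to 1.71 in D1. In D2 they were -2.22 to 0.80 and in D3 -2.16 to 1.12. The part of these shifts in the interferon-stimulated genes was not tested.

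The marker levels of D0 mouse 5 were within the range of the other mice. Its mean over the list ranked 4 of 18 for NK and cytotoxic genes, 9 for T cells, 11 for B cells, 2 for plasmacytoid dendritic cells, 17 for neutrophils, 2 for alveolar macrophages and 5 for monocytes. Over the promoter letters, its median difference from the other D0 mice was 0.61 for 15 tested genes with an ISRE match and 0.71 for 11 without one.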

How the data were processed

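Lung RNA of 18 mice was hybridised on 19 Agilent SurePrint arrays against Universal Mouse Reference RNA, without dye swaps. Lung was in Cy5 on every array, so that a constant dye bias of a probe enters the ratios of all groups alike and cancels between doses. The deposited scanner files hold median spot intensity values, not normalized (per the file headers, Feature Extraction 11.0.1.1). The series table of the authors holds normalized log2 ratios, and its Pearson correlation across probes with the ratios computed here was 0.995 to 0.998 per array.

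Following the study's methods, background was not subtracted, and median signals were normalized by loess (span 0.3) after 3671 control spots and outlier spots were left out. A probe was tested where it had a value in every mouse (80 did not) and lung signal was well above background in at least 4 mice of 1 group (30999 of 55681 probes). Of 22765 RefSeq-type identifiers, 21465 matched the GRCm38.p6 gene table. Each gene was represented by its tested probe with the brightest lung signal. limma 3.58.1 (R 4.3.3) was fitted over all 4 groups, in place of the study's MAANOVA, which was not installed, with Benjamini-Hochberg adjustment over all tested probes, and was tested on simulated data. The number of arrays limits precision.

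The genes, lists and tests were chosen with earlier results of these data known. Values of every mouse are given for Stat2, Irf7, Irf9, Ifit1, Isg15, Oas2, Rsad2, Igtp, Gbp2, Irgm1 and Bst2 by a rule, and for Ifit3, Gbp3, Ifi35 and Ifi27l2a after their values were seen. Lists were described by counts and medians, with no set test. The values of 1 listed gene are not reported here.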

Additional observations from a re-analysis of the deposited data

Results flagged for a closer look

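In 132 sets of values, 1 for each gene and dose group, 10 held a mouse whose gap to its nearest neighbour was large against the range of the group by Dixon's test, which chance marks in about 1 of 20 groups. The ratio of gap to range is given for each.

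In D0, mouse 5 stood highest for Oas1a (0.819, log2 ratio of 0.56 against -1.43 for the next mouse), Usp18 (0.847, 0.46 against -0.69), Dhx58 (0.773, 0.94 against 0.05) and Oas2 (0.768, 0.49 against -1.06). In D1, mouse 25 stood highest for the GTPase genes Gbp2 (0.918, 3.35 against 2.65) and Irgm1 (0.938, 0.95 against 0.47). In D2, mouse 29 stood highest for Igtp (0.731, 1.47 against 1.00) and mouse 26 lowest for Ifih1 (0.826, 1.18 against 1.46). In D3, mouse 32 stood highest for Bst2 (0.864, -0.17 against -1.15) and mouse 35 for Ddx58 (0.934, 0.88 against 0.75).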

How the results depend on the processing

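The count of 0 called genes at each dose, between neighbouring doses and in the trend was also 0 under normexp background correction, the scanner software's signals, the deposited log2 table, the lung channel alone, both other detection filters, slide as a block, either array of mouse 35 alone, mouse 23 counted in D1, a fit of only the groups compared (not applicable to the trend), any tested probe of a gene and adjusted p alone. It was 0 under median centring too, but there the calls over all probes dropped from 328, 194 and 754 at D1, D2 and D3 to 12, 18 and 98, so that this count says little about stability. Leaving out 1 mouse at a time gave 0 to 1 called genes at D1 and at D3 and 0 to 0 elsewhere; the calls came without D0 mouse 5, where Gbp3 was 0.76 at D1 (range 0.45 to 0.76) and Ifit3 0.61 at D3 (range 0.23 to 0.61). The range of the per-mouse median in D0, 1.03, was 1.31 under median centring, where the treated groups' ranges came to 0.999 to 1.14, 1.06 from the lung channel alone and 1.09 from the scanner software's signals, both chosen after seeing the data, and 0.47 to 1.08 with 1 D0 mouse left out, the lowest without mouse 5.

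Estimates near 0 at D3 changed sign with the setting. Under median centring Stat2 was 0.17, Isg15 0.091, Igtp 0.18 and Irgm1 0.14. Igtp was also 0.0198 in the deposited table, 0.0051 from the lung channel alone, 0.027 with slide as a block and 0.013 with array 35.2 alone. Stat2 was 0.018 with slide as a block and 0.019 with array 35.1 alone. With 1 mouse left out, ranges at D3 that crossed 0 were -0.10 to 0.10 for Stat2, -0.46 to 0.026 for Irf7, -0.033 to 0.10 for Irf9, -0.35 to 0.17 for Ifit1, -0.35 to 0.11 for Isg15, -0.33 to 0.17 for Oas2, -0.18 to 0.26 for Rsad2, -0.16 to 0.21 for Igtp, -0.0015 to 0.31 for Gbp2 and -0.15 to 0.0801 for Irgm1. The cause of these changes was not tested. No paired analysis by mouse number was possible because mouse numbers are not shared between the dose groups, so the block fitted was the slide, each of which held all 4 groups.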
